A study of Mus musculus with 4 samples.

Results

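Pericytes of the neonatal mouse oviduct and uterus were the subject: 698 of 21326 kept cells in 4 single-cell RNA-seq libraries, chosen by a marker rule. A cell counted as a pericyte when at least 3 of 6 genes (Rgs5, Ndufa4l2, Cox4i2, Gucy1a1, Gucy1b1 and Ebf1) had a UMI, Rgs5 or Ndufa4l2 among them. The 6 genes together had to hold at least 0.05% of the cell's UMIs, and Pecam1, Cdh5, Epcam and Upk3b, which mark endothelium, epithelium and mesothelium, had to have 0 UMIs. A UMI (unique molecular identifier) marks 1 captured transcript. The level of a gene is given as CPM, its UMIs per 1000000 UMIs, summed over the pericytes of a library. These 10 genes chose the cells, so their levels describe the choice.

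The 4 libraries were 2 of oviduct and 2 of uterus, from untreated wild-type female CD1 (ICR) mice at postnatal day 3, and no group carried a transgene or an agent. By the study's design text, the replicates were pools of 3 and 4 neonates, and both organs were taken from these same animals. The libraries of the organs are therefore not from separate animals, although the tests between organs treat all 4 as separate. The pooled organs were broken down to single cells by protease, collagenase and DNase before droplet capture with 10x Genomics 3′ chemistry. The labels name the material as mesenchymal and epithelial cells of each organ. They do not tie replicate numbers to a pool, and p-values measure the spread between these libraries.

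Pericytes are the mural cells that lie against the endothelium of capillaries and small venules, inside a shared basement membrane. Endothelial cells recruit them by secreting PDGF-B, which acts on the receptor PDGFRβ of the pericyte, and Notch3 signalling from endothelium holds them in the mural state. They set capillary tone through potassium channels, cyclic GMP and contractile proteins, and they grade into the smooth muscle of arterioles.

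The oviduct libraries held 184 and 142 pericytes, and the uterus libraries 178 and 194. Median depth per pericyte was 13742.5 and 11578 UMIs for oviduct and 12002.5 and 12991.5 UMIs for uterus libraries, so depth overlapped between the organs. The quality filter (at least 500 genes, at most 15% mitochondrial UMIs) removed 11.4% and 13.8% of called barcodes from oviduct and 29.0% and 28.7% from uterus. No pericyte barcode occurred in more than 1 library, while 43 kept barcodes did. Of the 698 pericytes, 389 had all 6 rule genes, with a median marker share of 0.425% of UMIs, and 41 had the minimum of 3, with a median of 0.0878%. At the edge of the rule, 10 pericytes lay under 0.06% (median 0.0535%), 69 cells failed only the 0.05% minimum (median 0.0324%), 31 failed only by having 2 markers, and 81 failed only through an exclusion gene. Scrublet scores marked 63 pericytes as probable doublets, 19 and 22 from oviduct and 15 and 7 from uterus, and they were kept in the main comparison. These were 10.3% and 15.5% of oviduct pericytes and 8.43% and 3.61% of uterus pericytes. In each library 0.8% of kept cells per 1000 called barcodes were marked, with 7808, 6773, 5716 and 6322 called barcodes.

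Kcnj8, Abcc9, Gucy1a1 and Gucy1b1 form neighbouring pairs whose products assemble with each other, and their promoters are printed to show the sequence in front of each gene. Kcnj8 encodes the pore and Abcc9 the sulfonylurea receptor of the vascular ATP-sensitive potassium channel, and Gucy1a1 and Gucy1b1 encode the subunits of soluble guanylate cyclase, the nitric oxide receptor. In GRCm38, Kcnj8 (chr6:142564837-142571614) lies 16.2 kb from Abcc9 (chr6:142587862-142702315), and Gucy1a1 (chr3:82092427-82145789) lies 17.7 kb from Gucy1b1 (chr3:82032006-82074689). All 4 genes are on the minus strand, with 0 protein-coding genes between the members of a pair. Rgs5 (chr1:169655501-169695813, plus strand) has its relative Rgs4 45.7 kb away on the minus strand (chr1:169741477-169747642). The stretches below, from RefSeq promoters on GRCm38.p6, end before the gene's outermost annotated base and read 5′ to 3′ on the minus strand. They cover chr6:142571615-142571864, chr6:142702316-142702524, chr3:82145790-82145900 and chr3:82074712-82074961 in the order printed. Capitals mark TGGGAA, the core bound by the Notch effector RBPJ.
Kcnj8: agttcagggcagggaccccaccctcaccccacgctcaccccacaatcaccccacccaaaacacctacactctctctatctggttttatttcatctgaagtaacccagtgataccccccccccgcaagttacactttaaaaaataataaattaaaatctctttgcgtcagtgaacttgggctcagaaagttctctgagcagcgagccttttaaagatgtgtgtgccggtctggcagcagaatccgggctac
Abcc9: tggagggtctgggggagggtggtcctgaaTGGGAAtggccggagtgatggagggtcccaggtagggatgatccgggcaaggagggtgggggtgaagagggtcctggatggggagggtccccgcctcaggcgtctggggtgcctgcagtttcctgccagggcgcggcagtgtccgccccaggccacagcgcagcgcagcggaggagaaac
Gucy1a1: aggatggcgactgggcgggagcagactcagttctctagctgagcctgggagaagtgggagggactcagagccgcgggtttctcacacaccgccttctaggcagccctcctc
Gucy1b1: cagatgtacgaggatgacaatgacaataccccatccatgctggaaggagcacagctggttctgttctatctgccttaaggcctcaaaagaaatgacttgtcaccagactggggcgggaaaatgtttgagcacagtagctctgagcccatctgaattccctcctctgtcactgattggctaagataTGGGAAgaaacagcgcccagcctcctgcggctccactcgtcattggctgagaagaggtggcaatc
A search on both strands for TGGGAA found 1 match in the Abcc9 stretch and 1 in the Gucy1b1 stretch. The same search found TGGGAA in 21.6% of 32851 promoters over 250 bases and in 18.6% over 209 bases. Neither CCCNNGGG, bound by EBF factors, nor ACGTG, the hypoxia response core, occurred in these 4 stretches, against 11.8% and 16.6% of all promoters over 250 bases. Over 209 bases, the length of the Abcc9 stretch, the shares were 9.88% and 13.6%. Over 111 bases, the length of the Gucy1a1 stretch, they were 4.96% and 6.74%. A match describes the letters only.

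The rule genes were high in every library. Rgs5, a GTPase activator for G proteins, stood at 982 and 1428 CPM in oviduct pericytes and 1085 and 1069 CPM in uterus pericytes. Ndufa4l2, a mitochondrial protein related to the cytochrome oxidase subunit Ndufa4, stood at 587, 710, 415 and 438 CPM in the same order (oviduct 1, oviduct 2, uterus 1, uterus 2). Ebf1, a transcription factor, stood at 931, 854, 870 and 886 CPM. Among these, the Ndufa4l2 levels of the organs did not overlap and those of Rgs5 and Ebf1 did. Cox4i2, the tissue-restricted isoform of a cytochrome oxidase subunit, stood at 182, 201, 197 and 231 CPM. The cyclase genes stood at 592, 534, 400 and 384 CPM for Gucy1a1 and 230, 261, 196 and 189 CPM for Gucy1b1, higher in both oviduct libraries than in either uterus library. In 953 smooth muscle cells, 9214 stroma cells and 654 endothelial cells, chosen by marker rules of the same form, Rgs5 ranged from 0.335 to 49.9 CPM and Ndufa4l2 from 0 to 15.2 CPM. Ebf1 was also present in endothelium, at 140 to 205 CPM. For smooth muscle the design's cell type markers were Myh11, Actg2, Des, Cnn1, Synpo2 and Lmod1. For stroma they were Pdgfra, Dcn, Col1a1, Col3a1, Lum and Vcan, and for endothelium Pecam1, Cdh5, Kdr, Cldn5, Egfl7 and Emcn. The levels of such markers in their own class describe the choice.

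Genes outside the rule were then used to check the label. The platelet-derived growth factor receptor Pdgfrb stood at 507, 526, 549 and 456 CPM in pericytes, against 96.6 to 162 CPM in stroma, 35.2 to 64.9 CPM in smooth muscle and 3.79 to 28.3 CPM in endothelium. Cspg4, the NG2 proteoglycan of the mural surface, stood at 100, 137, 119 and 123 CPM, and at 12.3 CPM or less in the other 3 classes. The Notch receptor Notch3 and its target Heyl were likewise high, Notch3 at 256, 286, 204 and 175 CPM and Heyl at 111, 102, 104 and 92.9 CPM. Pdgfrb, Cspg4 and Heyl overlapped between the organs. Kcnj8 stood at 327, 308, 245 and 240 CPM and Abcc9 at 261, 302, 321 and 280 CPM, both above every other class, where smooth muscle came nearest at 21.9 to 44.9 CPM and 40.0 to 68.9 CPM. Rgs4 stood at 20.1, 27.9, 13.9 and 26.4 CPM and at 1.37 CPM or less elsewhere. These measures were not in the rule, but they came from the same cells, so they are given without a test. The cells matched the pericyte label by these genes and were also positive for Acta2, which arteriolar smooth muscle expresses more strongly. Myh11, a smooth muscle gene, had a UMI in 36.4%, 32.4%, 24.2% and 29.4% of them without thinning. The rule excludes no smooth muscle gene, so arteriolar smooth muscle was not separated from pericytes.

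**Figure D1:**
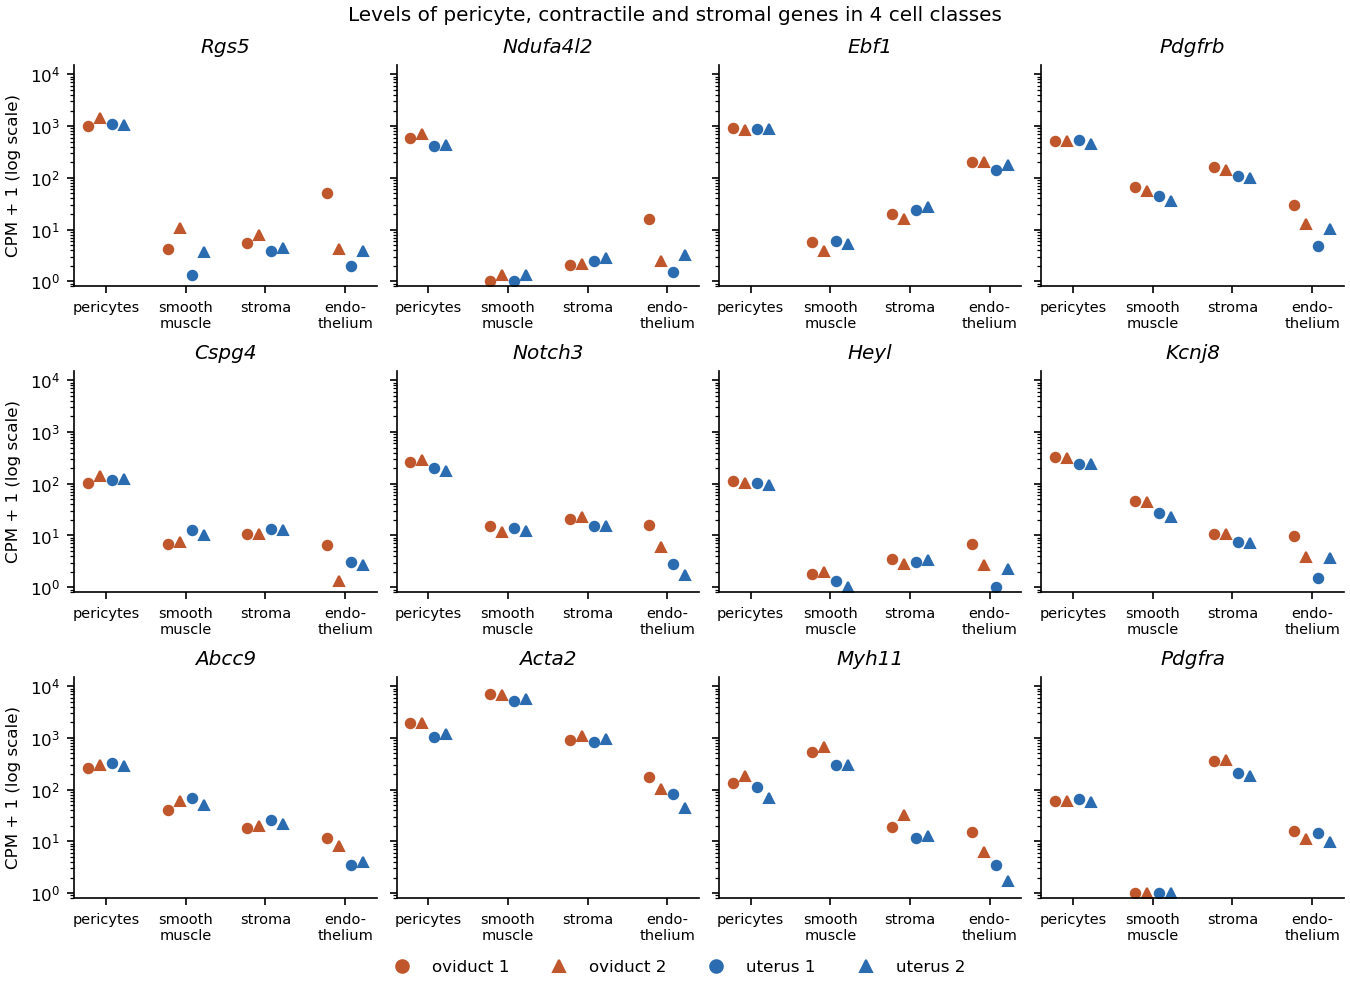
Level of 12 genes in pericytes, smooth muscle, stroma and endothelium of each library, as CPM + 1 on a log axis; circles are replicate 1 and triangles replicate 2, orange the oviduct and blue the uterus. Rgs5 lies between 982 and 1428 CPM in pericytes and at 49.9 CPM or less elsewhere, while Acta2 and Myh11 are highest in smooth muscle and Pdgfra in stroma. Rgs5, Myh11 and Pdgfra are markers of the pericyte, smooth muscle and stroma classes, so their high levels there describe the choice.

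Genes with at least 50 CPM in the pericytes of every library were ranked by the lowest library's ratio to all other kept cells. The leading genes outside the rule included Heyl, Ccl11, Aspn, Sept4, Foxs1, Slc7a2, Notch3, Gm13889, Itga4, Abcc9 and Rasgrp2. Ccl11, the chemokine eotaxin, stood at 229, 267, 150 and 159 CPM, 35.6 to 114 times the level in other cells. Aspn, a small matrix proteoglycan, was 17.9 to 35.9 times higher, the forkhead factor Foxs1 16.1 to 28.2 times, the amino acid transporter Slc7a2 15.4 to 28.8 times, and the integrin Itga4 12.6 to 26.9 times. Epas1 (HIF-2α) was shared with endothelium, at 112, 142, 96.2 and 78.5 CPM in pericytes and 249 to 278 CPM in endothelium, and stayed under 2 CPM in smooth muscle and stroma. The fatty acid binding protein Fabp7 stood at 58.5, 60.6, 36.02 and 52.1 CPM and at no more than 1.31 CPM in the other classes. It made up most of the neural and glial marker sum of pericytes, 40.1 to 65.8 CPM over 9 genes.

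Ndufa4l2 and Cox4i2 replace a ubiquitous relative in the respiratory chain of some tissues, and the relatives behaved unlike each other. Ndufa4, the ubiquitous counterpart of Ndufa4l2, stood at 296, 265, 307 and 316 CPM in pericytes, 0.460 to 0.510 times the level in all other cells, and at 517 to 882 CPM in the other classes. Cox4i1, the counterpart of Cox4i2, stood at 1393, 1282, 1297 and 1325 CPM, inside or just above the range of 1051 to 1374 CPM elsewhere. Neither relative was called between the organs in the test described below (log2 difference -0.19 ± 0.12 SE for Ndufa4 and -0.01 ± 0.11 SE for Cox4i1), although both oviduct libraries lay below both uterus libraries for Ndufa4. Of 21 hypoxia-responsive genes, 19 were tested and 2 were called (10.5%, against 4.63% of all genes), both higher in the oviduct: Ddit4, an inhibitor of mTOR, at 45.5, 54.8, 16.8 and 27.8 CPM (1.09 ± 0.21), and Cited2 at 74.8, 71.6, 32.3 and 39.4 CPM (0.98 ± 0.15). Both lost their calls without cells with Actg2 or Des, and Cited2 also after thinning.

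Markers of endothelium, epithelium, mesothelium and myeloid cells were low in pericytes, while those of stroma and smooth muscle were not. Visceral smooth muscle markers (11 genes) summed to 721, 766, 503 and 434 CPM in pericytes and 1875, 1970, 1447 and 1662 CPM in smooth muscle. Both sums were higher in the oviduct libraries. Myh11, Actg2, Des and Cnn1 also chose the smooth muscle class, so its sum describes that choice. Of 10 tested, 5 were called between the organs (50%, against 4.63% of all genes). Des, Myh11, Cnn1 and Actg2 were higher in the oviduct and Pcp4 (-4.13, free-RNA bound 46.4%) in the uterus. Endothelial markers (12 genes) summed to 150, 170, 101 and 118 CPM, higher in both oviduct libraries, of which Esam gave 35.2 to 85.8 CPM, against 5382 to 6356 CPM in endothelium, with Pecam1 and Cdh5 at 0 by the rule. Of these markers Emcn, a sialomucin of endothelium, was called between the organs (0.91 ± 0.20 by edgeR, lost in 6 of 17 alternatives). Epithelial markers summed to 11.5 to 21.6 CPM and myeloid markers to 8.42 to 16.4 CPM. Mesothelial markers summed to 36.3 to 68.8 CPM, of which Wt1, which stroma also expresses, gave 28.4 to 66.7 CPM, and lymphatic markers to 8.59 to 12.3 CPM. Stroma markers summed to 2125 to 2906 CPM in pericytes, also higher in both oviduct libraries, and to 3836 to 7891 CPM in stroma, and Pdgfra, the defining stroma receptor, stood at 58.2, 58.5, 64.3 and 57.1 CPM in pericytes. A UMI of Pdgfra was present in 29.9%, 26.1%, 32.0% and 37.1% of pericytes. With each cell thinned to 3000 UMIs, the share was 11.2%, 12.5%, 13.3% and 11.1% in pericytes, 0.685% to 5.23% in endothelium and 43.5% to 63.1% in stroma. Pdgfra is a marker of the stroma class, held by 100% of its cells before thinning, so the stroma share describes that choice. Haemoglobin genes stood at 55.0, 1065, 76.1 and 50.6 CPM, and 0, 2, 1 and 0 pericytes held more than 1% of their UMIs in them. Erythroid markers in oviduct 1 and oviduct 2 summed to 58.3 and 2299 CPM in smooth muscle. They summed to 585 and 2012 CPM in stroma and 51.7 and 2186 CPM in endothelium. The cause of the high second oviduct library was not tested.

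The pericyte share of kept cells was higher in the uterus. For oviduct it was 2.66% (95% exact Clopper-Pearson interval 2.29 to 3.07) and 2.43% (2.05 to 2.86), and for uterus 4.39% (3.78 to 5.06) and 4.30% (3.73 to 4.94). The organs did not overlap, with means of 2.55 ± 0.161% and 4.34 ± 0.0586% (SD, n = 2 each), and the exact 2-sided permutation test gave p = 0.3333, the smallest that 2 against 2 libraries allow. Endothelial cells numbered 160, 141, 170 and 183, so the number of pericytes per endothelial cell was 1.15, 1.01, 1.05 and 1.06. That ratio overlapped between the organs (means of 1.08 ± 0.101 for oviduct and 1.05 ± 0.00923 for uterus, SD, n = 2 each, exact permutation p = 1). The removed barcodes, more of them in the uterus, move with the share, and their part in it was not tested. The difference of -1.8 percentage points (oviduct minus uterus) was -0.964 without pericytes holding 2 or more UMIs of Actg2 or Des. That setting left 35, 34, 63 and 66 pericytes, which lowers the share in every library. Nothing is therefore read from the smaller difference in points.

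Dividing cells were common among pericytes. At 3000 UMIs per cell, Mki67 or Top2a, which cycling cells express, had a UMI in 36.5%, 30.9%, 28.3% and 33.3% of pericytes, against 12.9% to 18.5% of smooth muscle, 20.9% to 23.0% of stroma and 32.8% to 42.5% of endothelial cells. Without thinning the pericyte shares were 46.2%, 44.4%, 42.1% and 50.5%. In each library the pericyte share lay above those of smooth muscle and stroma, and in each it lay below that of endothelium. Counting intervals of the pericyte shares overlapped between the libraries, from 21.7% to 44.0% over all 4. Top2a itself was higher in oviduct pericytes, at 439 and 385 CPM against 305 and 252 CPM (log2 difference 0.53 ± 0.13, adjusted p = 0.028 by edgeR), a call lost in 4 of 17 alternative settings: without oviduct replicate 1, without uterus replicate 2, after thinning, and without cells with Actg2 or Des.

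**Figure D2:**
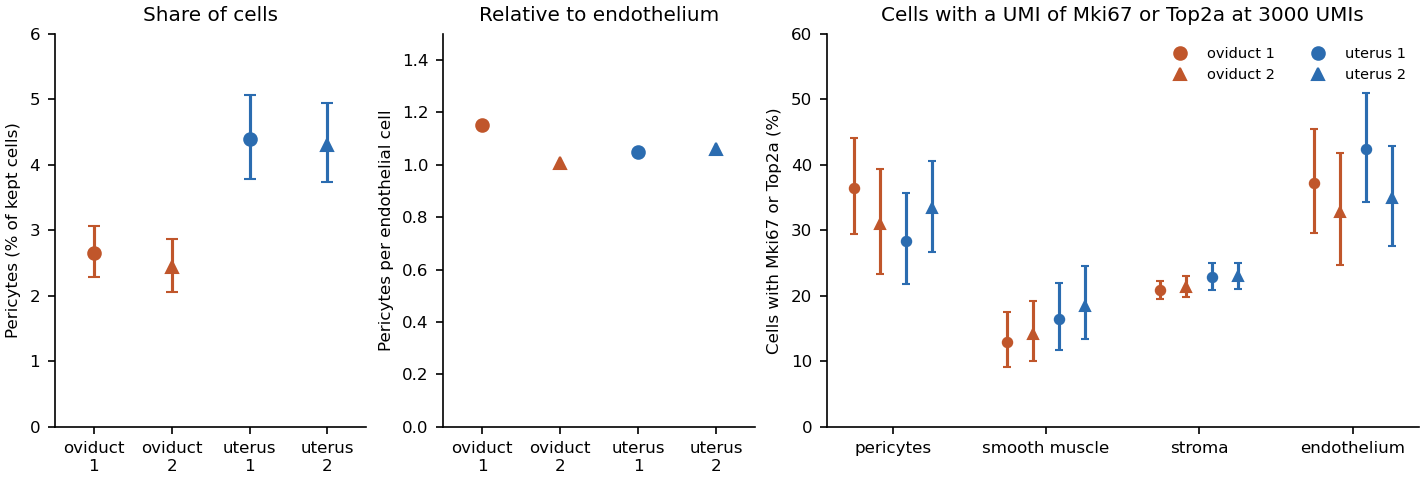
Left, pericyte share of kept cells per library in percent with 95% exact binomial intervals; middle, pericytes per endothelial cell; right, share of cells with a UMI of Mki67 or Top2a after thinning to 3000 UMIs, for each class and library. The share of pericytes is 2.43% to 2.66% for oviduct and 4.30% to 4.39% for uterus, while the ratio to endothelial cells lies between 1.01 and 1.15 in all 4 libraries.

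The organs were then compared within pericytes, on UMI counts summed per library, with edgeR's quasi-likelihood test over 10811 genes and a Benjamini-Hochberg adjusted p under 0.05. The test called 501 genes, 4.63% of those tested: 338 were higher in oviduct pericytes (3.13%) and 163 in uterus pericytes (1.51%). Log2 differences are oviduct minus uterus, with standard errors, and the median over all tested genes was -0.0045. DESeq2 called 280 genes on the same counts, 275 of them among the 501. An upper bound of the share contributed by free RNA, scaled from empty droplets, passed 25% in 3 of the 501 genes. The levels of the organs did not overlap in 500 of the 501 called genes, nor in 5009 of all 10811 tested, so the absence of overlap adds little to a call. Without cells holding 2 or more UMIs of Actg2 or Des, which removed most pericytes, 67 genes were called.

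Of the genes called, and counting those that averaged 20 CPM or more, a Hox gene had the largest difference in each direction. Hoxc8, which patterns the thoracic level of the body axis, stood at 107 and 115 CPM in oviduct pericytes and 6.55 and 9.04 CPM in uterus pericytes (3.76 ± 0.19, adjusted p = 2.4e-07). Hoxa7 (48.7, 52.7, 7.78 and 5.79 CPM), Hoxc9 (39.5, 44.2, 9.82 and 7.59 CPM) and Hoxc6 (59.9, 56.3, 18.4 and 17 CPM) were higher in the oviduct too. Toward the uterus, Hoxa11 stood at 9.17 and 3.16 CPM for oviduct and 61.4 and 55.0 CPM for uterus (-3.14 ± 0.27, adjusted p = 1.8e-05). Hoxd11 (8.46, 19.5, 126 and 86.1 CPM), Hoxa10 (46.5, 44.8, 162 and 140 CPM), Hoxd10 (4.94, 6.32, 29.9 and 27.8 CPM) and Hoxd9 (21.5, 17.4, 69.6 and 55.0 CPM) were higher in the uterus. Of 39 Hox genes, 25 passed the filter on low counts and 14 were called, 7 in each direction (56%, against 4.63% of all genes). Those higher in the oviduct were Hoxa7, Hoxb4, Hoxc4, Hoxc5, Hoxc6, Hoxc8 and Hoxc9, and those higher in the uterus were Hoxa10, Hoxa11, Hoxb9, Hoxc11, Hoxd9, Hoxd10 and Hoxd11. All 15 tested genes of paralogue groups 2 to 8 had a positive difference, 6 of them called, and in groups 9 to 11 it was negative for 8 of 10, 7 of them called. This grouping was chosen after the values were seen. Hoxc11 lost its call with DESeq2 and without oviduct replicate 1, and Hoxc9 without cells with Actg2 or Des. Hoxa9 lay between, at 73.0, 75.3, 79.4 and 65.8 CPM (-0.01 ± 0.14, not called). Hoxa13, Hoxb13, Hoxc12, Hoxc13 and Hoxd13 had 0 UMIs in pericytes of all 4 libraries, where a count of 0 allows up to 1.06 to 1.58 CPM.

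**Figure D3:**
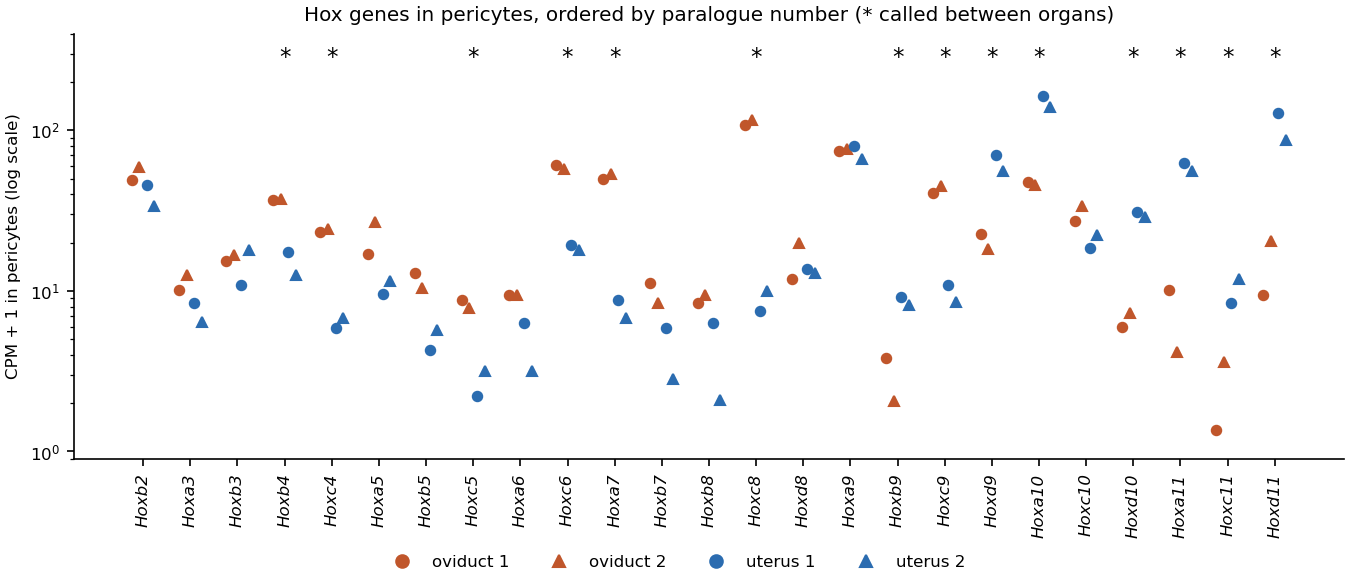
Level of the 25 tested Hox genes in the pericytes of each library, as CPM + 1 on a log axis, ordered by paralogue number. Circles are replicate 1 and triangles replicate 2, orange the oviduct and blue the uterus, with an asterisk on genes called between the organs. The log2 difference (oviduct minus uterus) is positive for the 15 genes of paralogue groups 2 to 8. It is negative for 8 of the 10 genes of groups 9 to 11, and ranges from Hoxc8 at 3.76 to Hoxa11 at -3.14.

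Outside the Hox family and above the same level, the largest differences toward the oviduct included a signalling regulator, matrix and lipid enzymes. Rgs16, of the family of Rgs5, stood at 70.9 and 163 CPM for oviduct and 6.96 and 16.3 CPM for uterus (3.21 ± 0.37, adjusted p = 0.00019). Enpp2, the enzyme autotaxin that makes lysophosphatidic acid, stood at 49.4, 50.5, 10.2 and 5.06 CPM (2.68 ± 0.24). The orphan nuclear receptor Nr2f1 stood at 145, 172, 26.2 and 28.9 CPM (2.47 ± 0.15), and the RNA-binding protein gene Celf2 at 47.3, 42.1, 4.91 and 11.6 CPM (2.37 ± 0.27). For all 4 the lower oviduct library exceeded the higher uterus library by more than 3 times. Stroma held more Enpp2, at 451, 405, 29.3 and 26.9 CPM (3.88), and its free-RNA bound reached 10.7% in oviduct pericytes. Celf2 stood at 168, 186, 32.8 and 27.9 CPM in stroma (2.50). Nr2f1 stood there at 107, 110, 7.71 and 10.7 CPM, and Rgs16 differed there by 1.01. Toward the uterus, Col6a4, a collagen VI chain, stood at 7.40, 7.37, 57.7 and 53.9 CPM (-2.95 ± 0.20). Tcf21, a factor of visceral mesenchyme, stood at 30.0, 25.8, 95.8 and 105 CPM (-1.87 ± 0.16), and Hmcn1, a matrix protein, at 12.3, 21.6, 76.9 and 58.6 CPM (-2.09 ± 0.22). Csgalnact1, which starts chondroitin sulfate chains, stood at 12.7, 7.90, 49.9 and 38.0 CPM (-2.06 ± 0.24), and Tmem132c (-2.01 ± 0.20) and Lbhd2 (-1.85 ± 0.22) completed the list. Hmcn1, Csgalnact1, Tmem132c and Lbhd2 lost their calls without cells with Actg2 or Des, and Lbhd2 also after thinning. Over 18 alternatives the Hmcn1 difference ranged from -2.91 to -1.30 and that of Csgalnact1 from -3.14 to -1.30. In stroma Tcf21 differed by -1.77 and Hmcn1 by -2.09, and neither interaction of organ and class, described below, was called (-0.12 and -0.02). Col6a4 (-2.07), Lbhd2 (-1.10) and Tmem132c (-0.60) differed less in stroma than in pericytes, and Csgalnact1 (0.33) ran the other way there.

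**Figure D4:**
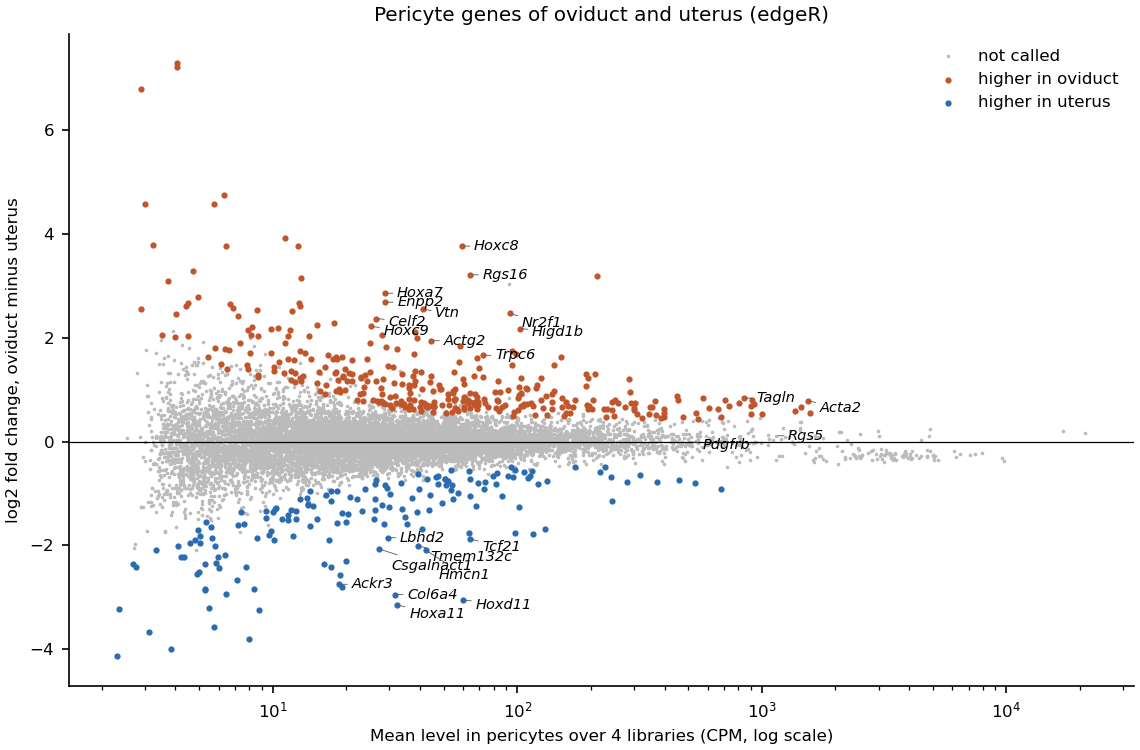
Log2 difference (oviduct minus uterus) against mean CPM on a log axis for the 10811 genes tested in pericytes, with the 338 genes called toward the oviduct and the 163 called toward the uterus in colour. The labelled genes include Hoxc8 at 3.76 and Hoxa11 at -3.14, and genes of lower level lie further out.

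Mural genes differed between the organs in some members. Pdgfrb (-0.00 ± 0.12), Cspg4 (-0.08 ± 0.15), Abcc9 (-0.14 ± 0.12), Kcnj8 (0.35 ± 0.11), Mcam (0.24 ± 0.13) and Heyl (0.08 ± 0.13) were not called, which does not show that they were equal. Kcnj8 and Mcam were higher in both oviduct libraries than in either uterus library, and Kcnj8 gained a call in 2 of 18 alternative settings. Of 38 mural genes outside the rule, 32 were tested, 9 were higher in the oviduct, 1 was higher in the uterus (31.3% called, against 4.63% of all genes), and the median difference was 0.33. Higd1b, a mitochondrial protein gene known as a pericyte marker, stood at 118 and 219 CPM for oviduct and 40.9 and 30.7 CPM for uterus (2.17 ± 0.24, adjusted p = 0.00013). Vtn, the matrix protein vitronectin, stood at 68.8, 72.7, 10.6 and 12.7 CPM (2.54 ± 0.17, adjusted p = 3.4e-06). The cation channel Trpc6 stood at 89.2, 133, 32.7 and 34.4 CPM (1.66 ± 0.18). Foxc1 (1.33), Nrip2 (1.58), Olfml2b (1.02), the amine oxidase Aoc3 (0.85) and Tbx2 (0.57) were higher in the oviduct as well, and Lhfp was higher in the uterus at 176, 181, 268 and 250 CPM (-0.58 ± 0.11). Notch3 was called at 0.47 ± 0.12, but 8 of 18 alternative settings lost it, DESeq2 among them, and Lhfp lost its call in 4 of 18, one of them without uterus replicate 1. Higd1b and Trpc6 lost their calls without cells with Actg2 or Des (adjusted p = 0.145 and 0.142).

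Higd1b and Vtn differed in the number of cells that held a UMI. At 3000 UMIs, Higd1b was detected in 21.9%, 27.9%, 9.25% and 8.99% of pericytes, and it had 0 UMIs in the smooth muscle cells of all 4 libraries, where a count of 0 allows up to 0.821 to 1.00 CPM. Vtn was detected in 15.7%, 20.6%, 5.20% and 4.76%, and in at most 0.8% of endothelial cells. Rgs5, for comparison, was detected in 75.8%, 85.3%, 76.3% and 70.9%, and in 0.625% to 1.96% of endothelial cells. Median depths were equal by construction at 3000 UMIs. Fewer cells with a gene and fewer transcripts per cell cannot be told apart from these shares.

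Contractile genes were higher in the oviduct. The 30 listed genes summed to 9536 and 9766 CPM in oviduct pericytes and 6438 and 6199 CPM in uterus pericytes (9651 ± 163 against 6319 ± 169, SD, n = 2 each). The organs did not overlap, and the exact permutation p was 0.3333, the smallest possible. Of the 27 tested, 11 were called (40.7%, against 4.63% of all genes), all higher in the oviduct, with a median of 0.53. Smooth muscle actin Acta2 stood at 1980, 1967, 1038 and 1178 CPM (0.79 ± 0.12, adjusted p = 0.0014), and transgelin, Tagln, at 1151, 1036, 628.7 and 562.3 CPM (0.84 ± 0.12). The intermediate filament gene Des stood at 364, 376, 226 and 234 CPM (0.64 ± 0.11), Mustn1 at 82.9, 75.8, 27.8 and 32.9 CPM (1.34 ± 0.16) and smooth muscle myosin, Myh11, at 136, 186, 111 and 69.1 CPM (0.80 ± 0.19). Myh11 lost its call in 7 of 18 alternatives, among them DESeq2 and leaving out oviduct replicate 2 or uterus replicate 2, and Des lost it without uterus replicate 1. In smooth muscle of the same libraries, the 30 genes summed to 20426, 19578, 14865 and 16356 CPM, also higher in both oviduct libraries. Acta2 stood there at 7172, 6834, 5097 and 5745 CPM (0.33) and Myh11 at 540, 675, 305 and 299 CPM (0.96). Tagln differed there by 0.15, Des by 0.11 and Mustn1 by 1.96. The interaction of organ and class, described below, was called for Acta2 (0.45), Tagln (0.67) and Des (0.51), not for Mustn1 (-0.63) or Myh11 (-0.17). Des and Myh11 are markers that chose the smooth muscle class, so their levels there describe the choice. Nothing is read from the interactions of Des and Myh11.

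A few cells carried part of the contractile signal. Enteric actin, Actg2, a marker of visceral muscle, stood at 87.4, 53.7, 20.5 and 16.3 CPM (1.94 ± 0.23), and 5 cells per library held 72.6%, 46.1%, 82.0% and 62.2% of its UMIs. Actg2, Mustn1 and Cnn1 lost their calls after thinning, and Cnn1 also with DESeq2. The contractile share of a cell's UMIs had a median of 0.623%, 0.652%, 0.466% and 0.407%, and a highest cell at 5.97%, 4.80%, 4.07% and 3.04%. The medians of the oviduct libraries lay above those of the uterus. Without the cells in which Actg2 had 2 or more UMIs, a setting chosen after seeing the data, Tagln, Cnn1, Mustn1 and Myh11 lost their calls and Acta2 and Des kept theirs. The summed contractile difference fell from 3330 to 1530 CPM in that setting. Without cells holding 2 or more UMIs of Actg2, or 2 or more of Des, 35, 34, 63 and 66 pericytes were left. The summed difference turned to -642 CPM there (exact permutation p = 0.667). Acta2 lost its call there too, its log2 difference falling to 0.04 (adjusted p = 0.97 by edgeR). Des is itself a pericyte gene, and its removal took most of the cells. Actg2 and Des also belong to the contractile list. Both removals therefore act on the sum itself, and nothing is read from its fall.

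Pericytes above and below the median contractile share of their own library differed in other genes too. Rgs5 was 1.54 to 2.79 times higher in the upper group over the 4 libraries, Ndufa4l2 1.62 to 2.47 times, Notch3 1.5 to 2.59 times and Itga7, a laminin receptor subunit, 1.49 to 3.39 times. Pdgfrb was lower in the upper group in all 4 libraries, at 0.791 to 0.879 times, and so was Top2a, at 0.610 to 0.952 times. Kcnj8 was higher in the upper group in 1 library and Abcc9 in 2. These are descriptions of cells sorted by a measured value, with no test.

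Receptors for vasoactive signals differed gene by gene. Of 51 listed, 23 were tested, 5 were called toward the oviduct and 1 toward the uterus (26.1%, against 4.63% of all genes), with a median of 0.09. The endothelin receptor Ednrb stood at 87.4, 117, 45.0 and 29.3 CPM (1.41 ± 0.19, adjusted p = 0.00064), while Ednra stood at 182, 178, 167 and 161 CPM (0.09 ± 0.12, not called). The angiotensin receptor Agtr1a stood at 64.5, 65.3, 35.2 and 27.5 CPM (1.01 ± 0.15), and the vasopressin receptor Avpr1a at 15.9, 10.0, 2.05 and 3.62 CPM (2.15 ± 0.42). Adra1a, an α1 adrenergic receptor, ran the other way at 1.06, 1.05, 11.5 and 8.32 CPM (-3.20 ± 0.49, adjusted p = 0.0016). The calls of Ednrb and Agtr1a were lost without cells with Actg2 or Des, and that of Agtr1a also after thinning and without cycling cells. Avpr1a lost its call without oviduct replicate 1. Adra1a kept its call in every alternative that could test it, but it rested on 3, 2, 28 and 23 UMIs. Its size of difference is therefore uncertain.

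Downstream of receptors, cyclic nucleotide genes were called in both directions. Of 34 listed, 28 were tested, 4 were called toward the oviduct and 1 toward the uterus, 17.9% against 4.63% of all genes. The 5 include Gucy1a1, a gene of the rule that chose the cells, so nothing is read from that share. The phosphodiesterase Pde4b was higher in the oviduct at 12, 16.3, 3.68 and 2.89 CPM (2.03 ± 0.36), and Pde4d was higher in the uterus at 10.9, 17.9, 34.8 and 40.5 CPM (-1.48 ± 0.23). Both hydrolyse cyclic AMP. Pde4b lost its call without cells with Pdgfra and without cycling cells, and Pde4d without cells with Actg2 or Des. Of 41 ion channel and calcium genes, 35 were tested and 2 were called (5.71%, near the 4.63% of all genes), Trpc6 and the gap junction gene Gja1 (-1.28 ± 0.33). The Gja1 call was lost in 6 of 15 alternative settings, among them DESeq2 and leaving out either oviduct library or uterus replicate 2, and its difference ranged from -1.85 to -0.41 over all 15. Of 20 Rgs genes, 10 were tested and Rgs16 and Rgs2 were called (20%, against 4.63% of all genes), Rgs2 at 34.6, 53.7, 11.9 and 18.1 CPM (1.46 ± 0.25).

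Ligand and receptor genes of vessel growth were called in a minority of members, 16.7% of the PDGF list, 18.8% of the Notch list and 10.3% of the other vessel ligands and receptors, against 4.63% of all genes. In the PDGF list, 6 of 7 genes were tested and Pdgfa was called, at 193, 210, 99.0 and 129 CPM (0.77 ± 0.14, adjusted p = 0.006). Of 22 Notch pathway genes, 16 were tested, Notch3 and the feedback inhibitor Nrarp (0.63 ± 0.16) were higher in the oviduct, and Lfng, which modifies Notch, was higher in the uterus at 2.12, 1.05, 5.32 and 7.96 CPM. These Notch calls depended on the setting: Nrarp lost its call in 7 of 18 alternatives, with a difference from -0.13 to 0.80, and Lfng in 5 of 14 (-2.69 to -1.66). DESeq2 called neither, and leaving out 1 library lost Nrarp (oviduct 2 or uterus 1), Lfng (oviduct 1, oviduct 2 or uterus 2) and Pdgfa (uterus 1). Of 38 vessel ligands and receptors, 29 were tested and 3 were called. The guidance ligand Slit2 stood at 79.0, 94.3, 27.0 and 30.7 CPM (1.53 ± 0.16), the growth factor Ptn at 1123, 920, 606 and 580 CPM (0.74 ± 0.13), and the scavenging chemokine receptor Ackr3 at 3.17, 7.37, 29.9 and 34.4 CPM (-2.75 ± 0.30). Ptn and Ackr3 lost their calls without cells with Actg2 or Des, Ptn also without cycling cells and Ackr3 without cells with Pdgfra. Angpt1, the ligand of endothelial Tie2, stood at 44.1, 45.3, 34.4 and 51.0 CPM and overlapped between the organs.

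Matrix genes leaned toward the oviduct. Of 68 listed, 64 were tested, 22 were called toward the oviduct and 4 toward the uterus (40.6% in all, against 4.63% of all genes, of which 3.13% toward the oviduct and 1.51% toward the uterus), with a median of 0.38. Col4a1, the main chain of vessel basement membrane, stood at 1788, 1990, 1361 and 1151 CPM (0.54 ± 0.12, adjusted p = 0.015), a level like that of endothelium (1642 to 2308 CPM) and above the 131 CPM or less of smooth muscle and stroma. Elastin, Eln, stood at 142, 134, 72.0 and 58.9 CPM (1.04 ± 0.14). The 4 genes higher in the uterus were Col6a4, Fbln5 (-1.34 ± 0.27), Fn1 (204, 217, 399 and 302 CPM, -0.77 ± 0.13) and Mmp2 (-0.57). Among the matrix genes refitted under each alternative, leaving out 1 library lost the calls of Fbln5 (oviduct 1), Fn1 (uterus 1), Col1a1 (uterus 2), Dcn (oviduct 1) and Col4a4 (oviduct 2 or uterus 1). Stroma markers summed to 2906, 2773, 2426 and 2125 CPM in pericytes, higher in both oviduct libraries, but the members went both ways. Of the 8 tested, 4 had a positive difference, with a median of 0.08. Col1a1 and Dcn were called toward the oviduct and Tcf21 (-1.87) and Vcan (-0.75) toward the uterus (50% called, against 4.63% of all genes). Stroma genes in the matrix list moved with the organ in stroma as well. Col1a1, for example, was higher in the oviduct in pericytes (0.62) and in stroma (1.20), but its call in pericytes was lost without cells with Pdgfra and with probable doublets removed. The latter setting gave 0.25, the lowest Col1a1 difference over 18 alternatives. Dcn, another stroma gene of the list, lost its call in the same 2 settings. Col1a1 and Dcn are markers that chose the stroma class, so their levels in stroma describe the choice.

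Signals of Müllerian duct development differed in both directions. In the Wnt list, 37 of 53 genes were tested and 3 were called in each direction (16.2%, against 4.63% of all genes). Wnt16 stood at 20.5, 26.9, 3.27 and 1.81 CPM (3.15 ± 0.35, adjusted p = 0.00016), and Wnt2 at 3.17, 0.527, 16 and 13.7 CPM (-2.83 ± 0.46). Stroma held more Wnt16, at 299, 277, 19.0 and 20.1 CPM (3.83), and the free-RNA bound of Wnt16 reached 12.7% in oviduct pericytes. Wnt4, which the female tract needs to form, stood at 62.4, 39.5, 102 and 89.3 CPM (-0.92 ± 0.19), and the receptors Fzd4 (1.57 ± 0.22) and Fzd8 (1.64 ± 0.43) were higher in oviduct pericytes and Fzd1 (-1.01 ± 0.20) in uterus pericytes. Wnt2 lost its call without cells with Actg2 or Des, and Fzd4 after thinning and without cycling cells. Of 45 TGF-β and BMP genes, 35 were tested and 5 called (14.3%). Fst (7.40, 10.0, 1.23 and 1.08 CPM) and Bmp2 (1.36 ± 0.33) were higher in the oviduct, and Bmp3, Gdf10 and Tgfbi were higher in the uterus. Stroma held Fst at 96.5, 104, 0.831 and 1.81 CPM (6.17), and the free-RNA bound of Fst reached 14.4% in oviduct pericytes. Fst kept its call in all 13 alternatives that could test it, while Bmp2 lost it in 5 of 14, Bmp3 in 6 of 14, Gdf10 in 7 of 18 and Tgfbi in 5 of 18. Fzd8 lost its call in 8 of 14, Fzd1 in 7 of 18 and Wnt4 in 4 of 18. Each of these 7 lost it on leaving out at least 1 library, and DESeq2 called neither Bmp2, Bmp3, Gdf10, Fzd8 nor Fzd1. Among steroid receptors, the progesterone receptor Pgr was higher in the uterus, at 4.58, 4.74, 16 and 14.1 CPM (-1.72 ± 0.32), and the oestrogen receptor Esr1 stood at 193, 216, 238 and 206 CPM (-0.16 ± 0.12, not called). DESeq2 did not call Pgr.

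Stress-response genes moved with the organ. Of 35 immediate early and stress genes, 34 were tested, 13 were called toward the oviduct and 1 toward the uterus (41.2% in all, against 3.13% and 1.51% of all genes in the 2 directions), with a median of 0.57. Atf3 stood at 175, 107, 42.2 and 57.1 CPM (1.48 ± 0.22), Nr4a1 at 214, 310, 97.4 and 141 CPM (1.07 ± 0.18) and Fos at 1193, 1154, 614 and 687 CPM (0.81 ± 0.12). Hspa1a was the exception at 80.0, 93.2, 136 and 115 CPM (-0.59 ± 0.14), and its reads cannot be separated with certainty from those of its near copy Hspa1b. The same genes differed in stroma, where the difference was 2.90 for Atf3 and 2.60 for Nr4a1. Such genes respond to tissue dissociation, and their part in the organ differences of other genes was not tested. Among 34 cell cycle genes, 4 were called (11.8%, against 4.63% of all genes). Cdkn1a (50.4, 49.5, 18.0 and 10.5 CPM, 1.79 ± 0.21), Ccne2 and Top2a were higher in the oviduct and Cdkn1c (381, 319, 636 and 506 CPM, -0.74 ± 0.14) was higher in the uterus. Hspa1a lost its call in 7 of 18 alternatives and Ccne2 in 7 of 16, DESeq2 among them for both, and Cdkn1c lost it without uterus replicate 1 and without cycling cells. Nr4a1 lost its call with DESeq2 and without cells with Actg2 or Des, and Cdkn1a after thinning.

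Inflammatory chemokines varied between libraries of 1 organ more than between organs. Ccl2, which draws monocytes, stood at 28.2, 217, 13.9 and 110 CPM, Cxcl10 at 32.1, 252, 9 and 128 CPM, and Cxcl1 at 42.3, 107, 11.1 and 115 CPM. The second library of each organ was the higher one for all 3, and none was called between the organs. Of 19 chemokine and cytokine genes, 13 were tested and 3 were called (23.1%, against 4.63% of all genes), all higher in the oviduct: Ccl11 (0.63 ± 0.12), Il34 (14.5, 15.8, 5.32 and 3.62 CPM, 1.71 ± 0.33) and Csf1 (1.25 ± 0.33). Il34 and Csf1 are the ligands of the macrophage receptor Csf1r. DESeq2 called neither of those ligands, and Csf1 lost its call in 9 of 16 alternatives, each omission of 1 library among them. Ccl11 lost its call without uterus replicate 1 and without cells with Actg2 or Des.

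Whether the organ difference of pericytes was also that of the surrounding mesenchyme was tested as an interaction of organ and cell class. Against smooth muscle, 645 of 11732 genes were called (5.5%), 158 of them among the 501 genes called in pericytes (31.5% of the 501). Against stroma, 1303 of 14487 genes were called (8.99%), 234 of them among the 501 (46.7% of the 501). Of the 272 genes called in pericytes and in smooth muscle, 252 had the same direction, and of the 406 called in pericytes and stroma, 377 did. The classes came from the same libraries, so these counts share their samples. The same pericyte sums entered both the 501 calls and the interactions. No share of equal direction over all genes is given, so nothing is read from the overlaps or directions. Leaving out a uterus library brought the smooth muscle count down to 134 (replicate 1) or 145 (replicate 2).

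Several genes ran in opposite directions in pericytes and in a neighbouring class. Cpxm2, a carboxypeptidase-like secreted protein, stood at 50.4, 56.9, 31.9 and 31.5 CPM in pericytes and at 6.64, 7.18, 101 and 90.8 CPM in stroma, an interaction of 4.53 (adjusted p = 5.9e-16 by edgeR). In smooth muscle Cpxm2 stood at 7.12, 10.9, 56.9 and 54.5 CPM (interaction 3.38). The imprinted zinc finger gene Zim1 stood at 13.8, 17.4, 32.7 and 41.2 CPM in pericytes and at 29.5, 32.0, 9.77 and 7.39 CPM in stroma (interaction -3.14, adjusted p = 4.6e-10). Pericytes were thus higher in the uterus for Zim1 and in the oviduct for Cpxm2, and the other class was the reverse in each case. Npr3, the natriuretic peptide clearance receptor, stood at 163, 232, 106 and 107 CPM in pericytes and 12.6, 22.1, 96.7 and 58.8 CPM in smooth muscle (interaction 3.02), and Fmod, fibromodulin, at 44.4, 46.9, 10.2 and 14.5 CPM against 11.8, 9.94, 26.8 and 19.3 CPM (2.91). Csgalnact1 was at 21.2, 19.6, 15.6 and 15.8 CPM in stroma, so its uterine excess in pericytes had no counterpart there (interaction -2.42).

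Other interactions were differences of size. Hoxa11 fell by 3.14 from uterus to oviduct in pericytes and by 5.57 in stroma, where it stood at 3.04, 3.42, 154 and 141 CPM (interaction 2.41). Hoxc6 differed by 1.68 in pericytes and 4.10 in stroma (interaction -2.44, adjusted p = 5.6e-09), and Hoxc8, Hoxa7 and Hoxd11 likewise differed less in pericytes than in stroma, with interactions of -1.61, -2.27 and 2.14. The kinase gene Dgkb differed by 0.73 in pericytes, 4.43 in smooth muscle and 4.5 in stroma. Vtn had no call in either interaction (-0.22 against stroma, adjusted p = 0.85 by edgeR). It stood at 0.274, 0.641, 0 and 0 CPM in smooth muscle and 1.04, 0.821, 0.0396 and 0.213 CPM in stroma. At such low levels a missing call does not show a shared organ difference. Higd1b had 0 UMIs in smooth muscle, so no fold is given there. The Hoxa11 interaction with stroma was lost without oviduct replicate 1 (1.19, adjusted p = 0.378), and those of Trpc6, Fzd4 and Tinagl1 with smooth muscle were lost without a uterus library.

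**Figure D5:**
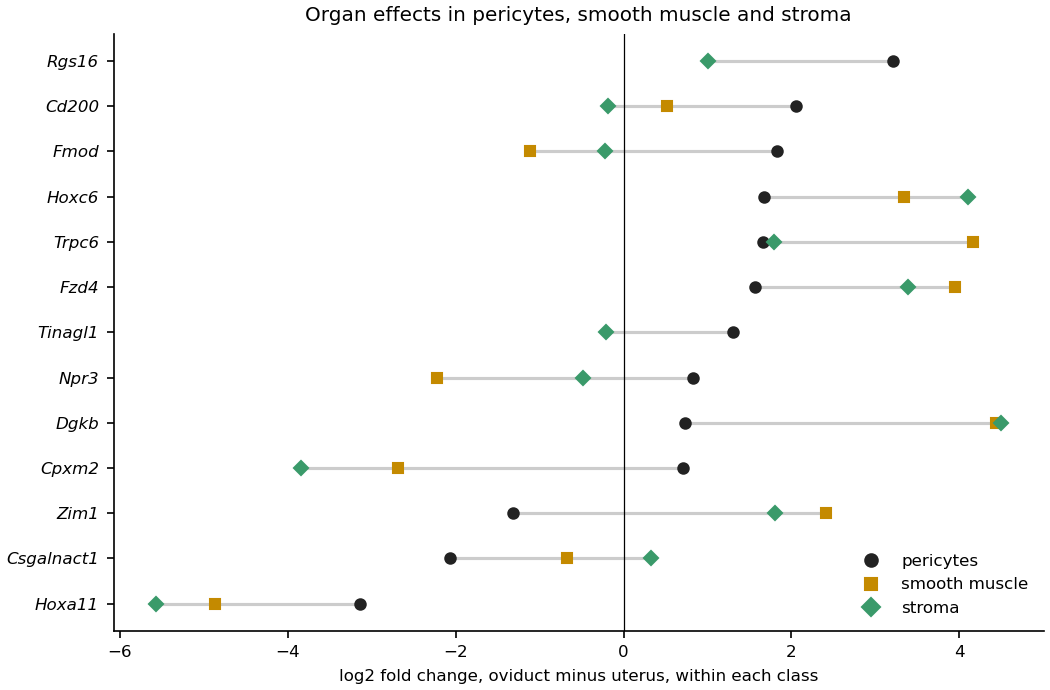
Log2 difference (oviduct minus uterus) in pericytes, smooth muscle and stroma for 13 genes named by their interaction, with a missing point where a gene was not tested in a class. Cpxm2 lies above 0 in pericytes (0.71) and below in smooth muscle (-2.69) and stroma (-3.85), and Zim1 lies below 0 in pericytes (-1.32) and above in smooth muscle (2.41) and stroma (1.80).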

How the data were processed

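Single-cell 3′ RNA-seq was measured in 4 libraries. The deposited files hold UMI counts per gene and barcode, made with Cell Ranger (6.0.1 per the file headers of the filtered matrices, 4 per those of the raw matrices); the submitters' processing notes also name Seurat 4.2.3 and the mm10 build. Annotation and alignment settings: not given in the sources used here. The filtered matrices gave the cells and the raw matrices the empty droplets (at most 50 UMIs) behind the free-RNA bounds.

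The quality filter asked for 500 genes or more and a mitochondrial share of 15% or less, which 21326 barcodes met. The pericyte rule and rules of the same form for smooth muscle, stroma and endothelium chose cells; 1608 cells meeting both the smooth muscle and the stroma rule were left out. Members and gene lists were chosen with earlier results of these data known. Raw counts were summed per library, 1899121 to 2835974 UMIs for pericytes, and tested in edgeR (version 4.0.16, under R 4.3.3; filterByExpr, TMM, quasi-likelihood F-test, 2-sided, Benjamini-Hochberg over all genes tested). Interactions used 8 sums with library and class as terms. Single values were compared with exact permutation tests over libraries. DESeq2 1.42.0, other scaling, filters, cell rules, removal of probable doublets (Scrublet in scanpy 1.11.5, 0.8% per 1000 barcodes), ambient subtraction, thinning to 3000 UMIs and leaving out each library were the alternatives; removal of Actg2-positive, haemoglobin-rich or cycling pericytes was added after seeing the data. Intervals and limits for a count of 0 (3 counts) cover counting error only.

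Named were the 8 largest called differences per direction at a mean of at least 20 CPM, without overlap and with a free-RNA bound of at most 25%, the 3 largest per direction in each list, 4 interactions per direction and class, and the 12 genes with the highest ratio to other cells. Some genes that this rule names are not reported here. Genes named beyond these and the fixed mural set were chosen after their values were seen. The test code was checked on simulated counts.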

Additional observations from a re-analysis of the deposited data

Results flagged for a closer look

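Each value below is an interaction in log2 units, the organ difference (oviduct minus uterus) in pericytes minus that in another class, and was tested as a term of edgeR's model.

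Against smooth muscle, the difference was larger toward the oviduct in pericytes for Cpxm2 (3.38), Npr3 (3.02), Fmod (2.91) and Tinagl1 (2.55). Tinagl1, a basement membrane protein, stood at 270, 325, 107 and 127 CPM in pericytes and at 0.962 to 3.32 CPM in smooth muscle. It was smaller, or toward the uterus, for Zim1 (-3.75), Dgkb (-3.72), Trpc6 (-2.51) and Fzd4 (-2.41). Trpc6 in smooth muscle rested on few transcripts, at 6.57, 7.05, 0.335 and 0.332 CPM. The calls of Trpc6, Fzd4, Fmod and Tinagl1 were lost without cells with Actg2 or Des, those of Trpc6, Fzd4 and Tinagl1 also after thinning and without either uterus library, and that of Trpc6 with DESeq2 and without oviduct replicate 1.

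Against stroma, the term was positive for Cpxm2 (4.53), Hoxa11 (2.41), Cd200 (2.23) and Rgs16 (2.16). Cd200, a membrane protein that restrains myeloid cells, stood at 45.1, 45.3, 9.0 and 11.9 CPM in pericytes and at 12.6 to 14.2 CPM in stroma. The term was negative for Dgkb (-3.78), Zim1 (-3.14), Hoxc6 (-2.44) and Csgalnact1 (-2.42). The calls of Hoxa11 and Cd200 were lost without cells with Actg2 or Des, that of Rgs16 after thinning, and that of Hoxa11 also with DESeq2 and without oviduct replicate 1.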

How the results depend on the processing

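The count of 501 genes between the organs went to 280 with DESeq2, 846 with no filter on low counts, 67 without cells with Actg2 or Des, 206 after thinning, 223 without cycling cells, and 403 to 610 on leaving out 1 library. With the replicate block it was 750, with 497 of the 501 called again; the labels do not tie replicate numbers to a pool (correlation of deviations 0.0269). The smooth muscle interaction count of 645 went to 116 with DESeq2, 134 without cells with Actg2 or Des, 220 after thinning, and 134 to 660 on leaving out 1 library. The stroma count of 1303 went to 488, 259 and 398 in the same settings, and 937 to 1160. Thinning and cell removal leave fewer cells or transcripts, and 318 of the 349 genes that could be retested without cells with Actg2 or Des kept their direction.

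Pericytes per endothelial cell, 0.025 higher for oviduct, turned to -0.101 under the stricter cell filter, -0.0222 without probable doublets and -0.136 without cells with Actg2 or Des, and ranged from -0.0465 to 0.0964 on leaving out 1 library. The contractile difference turned to -642 CPM without cells with Actg2 or Des. In that setting Tagln (-0.99), Pdgfa (-0.63), Myh11 (-0.42), Nrarp (-0.13), Des (-0.0936), Vcan (0.0358) and Tgfbi (0.38) changed sign, and Cnn1 (-0.0274) did without cells with Actg2; the cause was not tested. Of 80 called genes named by the rule, 18 kept their call in every alternative that could test them, among them Hoxc8, Hoxa7, Hoxa11, Hoxd11, Vtn, Nr2f1, Rgs16, Enpp2, Col6a4, Tcf21, Slit2 and Wnt16; 62 lost it in 1 or more. With 2 libraries per organ, the lone library left by an omission is assumed to vary like the others.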

Other observations

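Further genes with large organ differences in pericytes lay outside the lists and the naming rule and were chosen after their values were seen, so they are given as values of the same edgeR test. Toward the oviduct, the growth factor gene Igf1 stood at 134, 162, 45 and 40.1 CPM (1.75 ± 0.14, adjusted p = 1.7e-05), and caveolin, Cav1, which coats membrane pits of vessel cells, at 200, 220, 70.8 and 76.3 CPM (1.47 ± 0.13). The protease gene Adamts5 stood at 65.6, 58.4, 13.9 and 14.1 CPM (2.11 ± 0.17) and the small heat shock gene Cryab at 233, 226, 65.9 and 77.7 CPM (1.63 ± 0.14). Fam162b stood at 24.7, 17.4, 2.05 and 0.723 CPM (3.91 ± 0.44) and Nostrin, a regulator of endothelial nitric oxide synthase, at 18, 26.3, 5.32 and 1.45 CPM (2.66 ± 0.41).

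Toward the uterus, Plac8 stood at 56.8, 70.6, 159 and 233 CPM (-1.68 ± 0.18, adjusted p = 0.00013), Amer1, an inhibitor of Wnt signalling, at 57.1, 49, 197 and 160 CPM (-1.78 ± 0.15) and Kctd12 at 31.4, 26.9, 108 and 87.1 CPM (-1.76 ± 0.16). Lower in level were the cannabinoid receptor Cnr1 at 1.41, 1.58, 13.1 and 9.76 CPM (-2.94 ± 0.45), the inflammatory caspase Casp4 at 1.41, 2.11, 14.3 and 17.4 CPM (-3.23 ± 0.41) and Tmem108 at 1.06, 1.05, 14.3 and 15.5 CPM (-3.80 ± 0.44).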
